A study of Mus musculus with 12 samples.

Results

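Lipases and their regulators were followed in gonadal white adipose tissue (GWAT) of mice as 10 genes, chosen by symbol from the 55281 genes of the table of estimated counts. 6 of them act inside the adipocyte (Lipe, Pnpla2, Abhd5, Mgll, Pnpla3 and Ces1d), 3 act on lipoproteins at the vessel wall (Lpl, Gpihbp1 and Angptl4), and Lipa acts in the lysosome. All 10 passed the filter on low counts in the fit of all 12 libraries, which kept 18074 genes. The study asked what the loss of HOIP, the ubiquitin ligase encoded by Rnf31 that builds linear ubiquitin chains, does to adipose tissue on a control diet (CD) and on a high-fat diet (HFD).

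RNA sequencing was done on GWAT of male mice in 4 groups of 3 libraries, and each library pooled the tissue of 3 mice because the HoipA-KO fat pads were small. Mice of every group, controls included, carried Hoip fl/fl. WT mice were AdipoQ.Cre-, and HoipA-KO mice were AdipoQ.Cre+, with Cre under the adiponectin promoter, which is active in mature adipocytes. The diets, with 14% fat (CD) or 60% fat (HFD), (the labels give 14% for CD and the methods a slightly lower fat content) began at 6 weeks of age and lasted 16 weeks, and the mice were 22 to 24 weeks old at the end. Groups are named WT CD, WT HFD, HoipA-KO CD and HoipA-KO HFD. The p-values measure the spread between 3 pools a group.

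Stored fat is broken down in sequence. ATGL, the product of Pnpla2, with its coactivator CGI-58 from Abhd5 releases the first fatty acid from a triglyceride, hormone-sensitive lipase from Lipe the next, and monoglyceride lipase from Mgll the last. Fat from the blood enters by another route: lipoprotein lipase from Lpl is carried to the capillary lumen by GPIHBP1 and is inhibited by ANGPTL4. Lysosomal acid lipase from Lipa cleaves cholesteryl esters and triglycerides that reach the lysosome and is abundant in macrophages that take up lipid.

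Library totals lay between 30513500 and 60540260 counts. WT CD replicate 3 stood apart: 4469 genes, holding 19.9% of its counts, exceeded each of the other libraries by over 8 times, and its testis germ cell markers summed to 8221 CPM (counts scaled to a common library size after TMM normalisation). WT CD replicate 2 had 410 such genes with 6.84% of its counts and epididymal markers at 15810 CPM. WT CD replicate 1 had 0 such genes, so a fit without it rests for WT CD on replicates 2 and 3 alone. Pairs of WT CD libraries correlated at r = 0.785 to 0.903, against 0.968 to 0.992 in the other groups. Results are therefore given with 12 libraries, and calls of members that differ are given also with 11, without WT CD replicate 3. The adipocyte marker list, summed over 10 genes, was 13930 to 49040 CPM in WT and 5314 to 9079 CPM in HoipA-KO, with 9 of 10 markers called lower on CD and 8 of 10 on HFD (10 of 10 with 11 libraries). The macrophage list of 9 genes was 260 to 499 CPM in WT CD, 1309 to 4306 CPM in WT HFD and 4992 to 9092 CPM in HoipA-KO. Rnf31, the targeted gene, had 12.8 to 22.5 CPM over all libraries and did not differ between genotypes on CD (log2 fold change 0.08 ± 0.21 SE, edgeR adjusted p = 0.798) or on HFD (0.11 ± 0.21, edgeR adjusted p = 0.805). A count over the whole gene in whole tissue does not show deletion of an exon in adipocytes alone.

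The members lie on 7 chromosomes in GRCm38, by GENCODE M21. Lipe is at chr7:25379527-25398710 and Pnpla2 at chr7:141455198-141460743, Abhd5 at chr9:122351608-122381524, Mgll at chr6:88724412-88828360, Pnpla3 at chr15:84167837-84187236 and Ces1d at chr8:93166068-93197838. Lpl is at chr8:68880491-68907448, Gpihbp1 at chr15:75596628-75599481, Angptl4 at chr17:33773750-33781830 and Lipa at chr19:34492318-34527474. Lipe, Mgll and Abhd5 overlap genes on the opposite strand, and whether the counting used the strand of the stranded libraries was not stated. Ces1d lies in a cluster of carboxylesterase genes of similar sequence, so its counts are uncertain where reads could fall to a neighbour.

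The promoters of 2 genes that differed in opposite directions on CD, Mgll and Lipa, are shown over the 250 bases before the start of transcription in RefSeq (GRCm38.p6). The letters CACGTG, the core of the E-box that TFEB and other factors bind, are in capitals. The Mgll window is chr6:88724162-88724411 on the plus strand, and the Lipa window is chr19:34527475-34527724 on the minus strand, each written 5′ to 3′.
Mgll: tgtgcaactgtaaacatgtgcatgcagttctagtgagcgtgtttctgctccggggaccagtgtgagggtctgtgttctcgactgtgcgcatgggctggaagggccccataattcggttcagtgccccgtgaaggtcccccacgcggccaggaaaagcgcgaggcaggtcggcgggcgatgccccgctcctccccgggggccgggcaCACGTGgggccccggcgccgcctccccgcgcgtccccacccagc
Lipa: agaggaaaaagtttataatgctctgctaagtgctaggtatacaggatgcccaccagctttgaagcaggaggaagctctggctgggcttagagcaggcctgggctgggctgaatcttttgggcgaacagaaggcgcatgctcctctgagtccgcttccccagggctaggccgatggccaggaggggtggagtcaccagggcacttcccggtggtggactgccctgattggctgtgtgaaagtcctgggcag
The Mgll window shown held CACGTG once, starting at -44 from the transcription start, and the Lipa window did not hold it. The table has a second Mgll window, chr6:88724454-88724703, for another start, and that one did not hold it either. Windows of 6 members were in the table (Lipe, Pnpla2, Abhd5, Mgll, Pnpla3 and Lipa), and CACGTG was also in a Lipe window, against 6.02% of all 32851 windows of that length. The letters GGGCGG on either strand, the core of the Sp1 box, stood in windows of Lipe, Pnpla2, Abhd5 and Pnpla3, in the second Mgll window but not the one shown, and in 32.7% of all windows.

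On CD, 7 members were lower and 1 higher in HoipA-KO than in WT (quasi-likelihood test of edgeR, p adjusted after Benjamini and Hochberg). All 6 intracellular members and Gpihbp1 were lower, Lipa was higher, and Lpl and Angptl4 did not pass. Over all genes tested, 19.1% were called lower and 15.6% higher in this comparison. The median log2 fold change of the 10 members was -1.22, against -0.21 for all genes. With 11 libraries the same counts of 7 lower and 1 higher were found among 37.7% of genes called in either direction. On HFD, 3 members were lower (Lipe, Pnpla2 and Ces1d) and 0 higher, against 2.25% of all genes lower and 0.531% higher, and the median of the members was -1.32 against 0.04 for all genes. With library size in place of TMM the genes called on HFD were 429 lower and 248 higher, against 407 and 96. With 11 libraries 5 members were lower on HFD, Mgll and Pnpla3 being added, among 11.8% of genes called in either direction. The count on HFD rested on single libraries: it was 0 to 6 when each library was left out in turn, and only without a WT CD library, 3 of the 12 cases, did Lipe, Pnpla2 and Ces1d keep their calls.

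**Figure D1:**
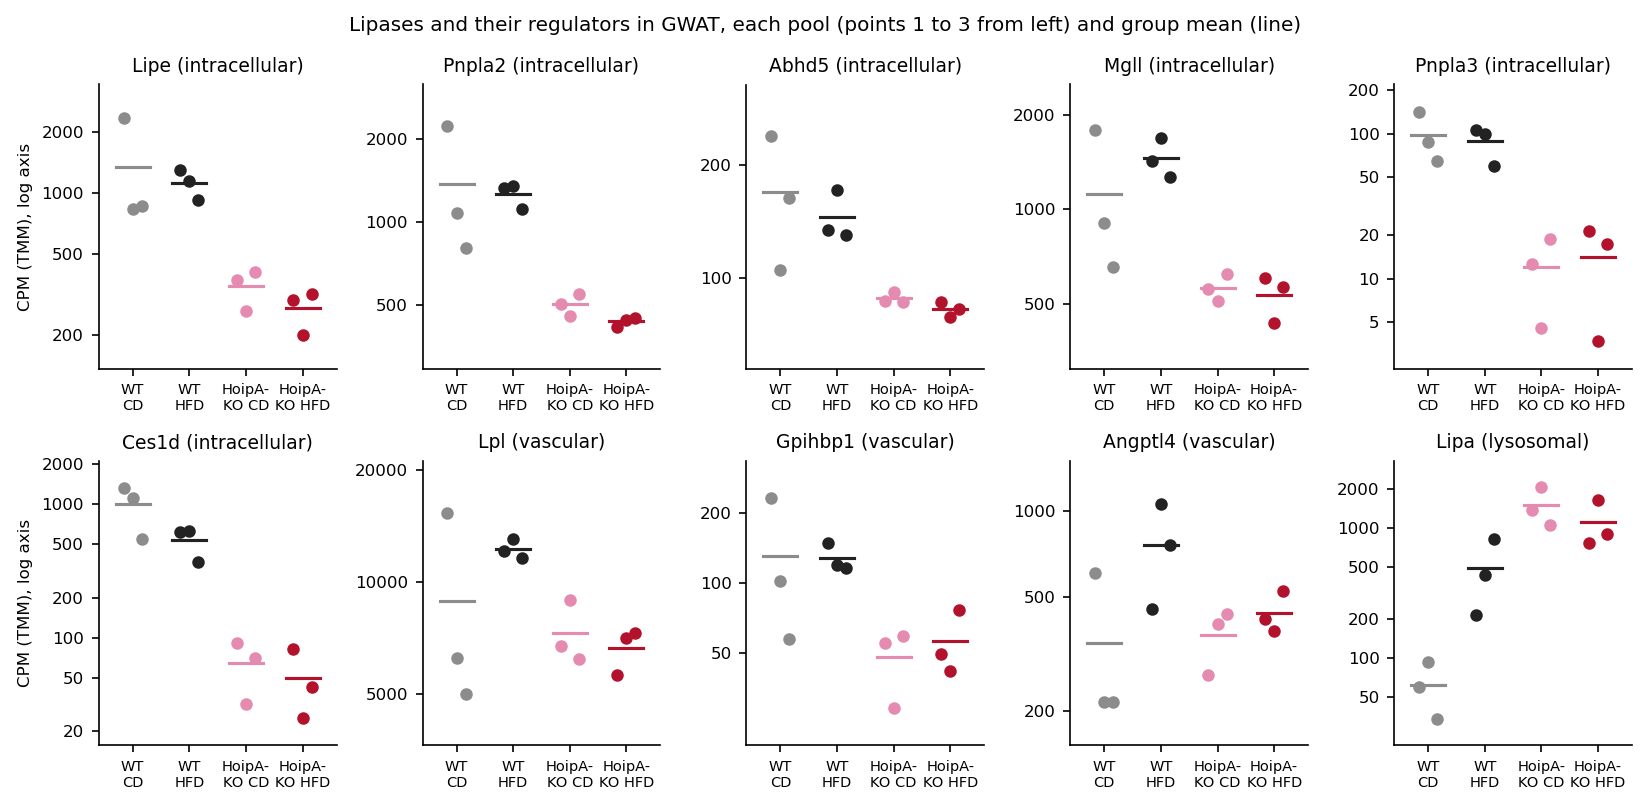
CPM of the 10 members on log axes in each group, with the 3 pools as points in the order of their numbers and the arithmetic mean as a line (KO, HoipA-KO). The intracellular members sit lower in both HoipA-KO groups, while Lipa sits at 33.9 to 92.1 CPM in WT CD and at 762 to 2056 CPM in HoipA-KO.

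Lipe, encoding hormone-sensitive lipase, had 2320, 835 and 862 CPM in WT CD and 373, 263 and 408 CPM in HoipA-KO CD. On HFD it had 1303, 1143 and 919 CPM in WT and 297, 202 and 318 CPM in HoipA-KO. The genotypes did not overlap on either diet, and WT CD replicate 1 was the highest library by far. On CD Lipe fell by 1.94 ± 0.41 on the log2 scale, which is 3.85-fold (edgeR adjusted p = 0.00638), and on HFD by 2.04 ± 0.41, which is 4.12-fold (edgeR adjusted p = 0.036). Without WT CD replicate 1 the CD value was -1.25, and the call held. In bulk tissue fewer cells of a type and less RNA per cell cannot be told apart, and the adipocyte markers moved with Lipe. As a percentage of the summed adipocyte markers of its own library, a description made after the values were seen, Lipe was 3.82 to 6.19% in WT and 3.52 to 4.49% in HoipA-KO. Over the 12 libraries this share spanned 1.76-fold, where the CPM of Lipe spanned 11.5-fold. The share depends on the sum, which weighs each marker by its abundance. Single markers changed unequally on CD, from -6.15 (Cfd) to -0.31 (Lep) on the log2 scale. Adipoq fell more than Lipe (-2.40) and Plin1 less (-1.75).

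Pnpla2, the gene of ATGL, had 2232, 1074 and 805 CPM in WT CD and 504.1, 454 and 549 CPM in HoipA-KO CD. On HFD it had 1331, 1351 and 1113 CPM in WT and 415, 442 and 448 CPM in HoipA-KO. No HoipA-KO library reached the lowest WT library. Pnpla2 fell by 1.45 ± 0.33 on the log2 scale on CD (2.73-fold, edgeR adjusted p = 0.00948) and by 1.54 ± 0.33 on HFD (2.91-fold, edgeR adjusted p = 0.0415). Its share of the adipocyte markers was 4.36 to 5.78% in WT and 4.91 to 8.31% in HoipA-KO. The CD call was lost without HoipA-KO CD replicate 1 or 2, and without WT CD replicate 1 the value was -0.87.

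Abhd5, whose product switches ATGL on, had a log2 fold change on CD close to that of Mgll. It had 238, 105 and 163 CPM in WT CD and 86.8, 91.6 and 86.3 CPM in HoipA-KO CD. On HFD it had 134, 171 and 129.9 CPM in WT and 86.4, 78.9 and 82.8 CPM in HoipA-KO. The groups did not overlap on either diet, and the HoipA-KO libraries lay close together. Abhd5 fell by 0.94 ± 0.25 on the log2 scale on CD (1.91-fold, edgeR adjusted p = 0.0183). On HFD its log2 fold change was -0.81 ± 0.25 (edgeR adjusted p = 0.102). The CD call was lost without any 1 of the 3 HoipA-KO CD libraries, with values of -1.18 to -0.57 over all libraries left out. As a share of the adipocyte markers Abhd5 was 0.439 to 1.17% in WT and 0.95 to 1.53% in HoipA-KO. These overlapped through WT CD replicate 3 alone (1.17%), the library with testis markers, the other WT libraries having 0.439 to 0.573%. This share spanned 3.48-fold, where the CPM of Abhd5 spanned 3.01-fold.

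Mgll, the gene of monoglyceride lipase, had 1786, 903 and 656 CPM in WT CD and 557, 508 and 619 CPM in HoipA-KO CD. On HFD it had 1420, 1681 and 1267 CPM in WT and 605, 434 and 565 CPM in HoipA-KO. The highest HoipA-KO CD library lay just under the lowest WT CD library, and on HFD the genotypes stood well apart. Mgll fell by 0.99 ± 0.34 on the log2 scale on CD (1.99-fold, edgeR adjusted p = 0.0438), and its log2 fold change on HFD was -1.45 ± 0.34 (edgeR adjusted p = 0.0519). With 11 libraries both passed, at -1.22 (edgeR adjusted p = 0.00857) and -1.43 (edgeR adjusted p = 0.0141). The CD call was lost in 10 of the 12 fits that left out 1 library, and without WT CD replicate 1 the value was -0.44. As a share of the adipocyte markers Mgll was 3.64 to 5.62% in WT and 6.60 to 8.48% in HoipA-KO, with no overlap. The part of other cell types in this share was not tested.

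Pnpla3 and Ces1d differed most between genotypes among the members that were lower. Pnpla3, a close relative of ATGL that remodels triglycerides, had 140, 87.7 and 64.5 CPM in WT CD and 12.6, 4.55 and 18.7 CPM in HoipA-KO CD. On HFD it had 105, 100.2 and 60.2 CPM in WT and 21.3, 3.73 and 17.4 CPM in HoipA-KO. No HoipA-KO library overlapped WT, and HoipA-KO replicate 2 was the lowest on each diet. Pnpla3 fell by 3.03 ± 0.67 on the log2 scale on CD (8.17-fold, edgeR adjusted p = 0.00824). On HFD its log2 fold change was -2.65 ± 0.66 (edgeR adjusted p = 0.0597), and with 11 libraries -2.64 (edgeR adjusted p = 0.033).

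Ces1d, encoding a carboxylesterase that hydrolyses triglycerides, had 1328, 1122 and 549.9 CPM in WT CD and 91.9, 31.8 and 70.1 CPM in HoipA-KO CD. On HFD its levels were 622, 634 and 371 CPM in WT and 82.8, 25.0 and 42.8 CPM in HoipA-KO. Every HoipA-KO library lay far below every WT library. Ces1d fell by 3.95 ± 0.58 on the log2 scale on CD (15.5-fold, edgeR adjusted p = 0.000847) and by 3.43 ± 0.56 on HFD (10.8-fold, edgeR adjusted p = 0.0294). Its share of the adipocyte markers was 1.62 to 5.25% in WT and 0.47 to 1.09% in HoipA-KO, and that of Pnpla3 was 0.264 to 0.463% in WT and 0.0702 to 0.252% in HoipA-KO. Both shares were lower in every HoipA-KO library than in any WT library, unlike the share of Lipe. The summed hepatocyte markers, for a tissue in which both genes are also active, were 159 to 5420 CPM in WT and 23.9 to 119.6 CPM in HoipA-KO, and their part in these results was not tested. That list did not move as one: 2 of its 6 genes were called lower on CD and 1 on HFD, and 1 was called higher on both diets.

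Lpl was the most abundant member per length. Divided by the length of its merged exons, it had 847 ± 538 CPM per kb (SD, n = 3) in WT on CD and 1170 ± 70.8 on HFD, and in HoipA-KO 696 ± 140 on CD and 635 ± 87.0 on HFD. On the same scale Pnpla2 was the next gene in WT, with 454 ± 251 CPM per kb on CD and 419 ± 43.7 on HFD, and its spread on CD overlapped that of Lpl and of Ces1d, which had 422 ± 170 CPM per kb. In HoipA-KO that place was held by Lipa, with 220 ± 76.0 CPM per kb on CD and 163 ± 70.8 on HFD, next to Pnpla2 at 166 ± 15.6 and 144 ± 5.79, from which it did not differ beyond the spread of the pools. In WT CD, Lipa had the lowest level of the 10 members, at 9.11 ± 4.31 CPM per kb.

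Among the vascular members, Gpihbp1 alone passed the test, on CD, in the fit of all 4 groups. With the 2 groups compared fitted alone, Gpihbp1 on CD did not pass (edgeR adjusted p = 0.131), while on HFD Lpl (-0.87, edgeR adjusted p = 0.0294) and Gpihbp1 (-1.19, edgeR adjusted p = 0.0248) did. Lpl, encoding lipoprotein lipase, had 15340, 6257 and 5014 CPM in WT CD and 6713, 8960 and 6196 CPM in HoipA-KO CD, and these overlapped. The HFD libraries held 12100, 13060 and 11600 CPM in WT and 5613, 7069 and 7290 CPM in HoipA-KO, which did not overlap. Its log2 fold change was -0.28 ± 0.43 on CD (edgeR adjusted p = 0.621) and -0.88 ± 0.43 on HFD (edgeR adjusted p = 0.264). The CD value rested on WT CD replicate 1, without which it was 0.40 (edgeR adjusted p = 0.272). As a percentage of the adipocyte markers, Lpl was 29.3 to 50.8% in WT and 66.5 to 150% in HoipA-KO. Lpl is also expressed by macrophages, whose markers were higher in HoipA-KO, and their part was not tested.

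Gpihbp1, made by capillary endothelium, had 233, 102 and 57.3 CPM in WT CD and 55.2, 28.9 and 59.2 CPM in HoipA-KO CD, which overlapped at 1 library of each group. Its levels on HFD were 149, 119.7 and 116 CPM in WT and 49.6, 41.9 and 76.4 CPM in HoipA-KO, which did not overlap. Gpihbp1 fell by 1.45 ± 0.47 on the log2 scale on CD (2.74-fold, edgeR adjusted p = 0.0368), and its log2 fold change on HFD was -1.20 ± 0.47 (edgeR adjusted p = 0.172). The CD call was lost in 10 of the 12 fits that left out 1 library, with -0.71 without WT CD replicate 1, and it held without WT CD replicate 2 or 3, at -1.77 (edgeR adjusted p = 0.00739) without the latter. The 8 endothelial markers summed to 402 to 1213 CPM in WT and 341 to 683 CPM in HoipA-KO. Of the 8, 1 was called lower on CD and 0 on HFD, against 19.1% and 2.25% of all genes. With 11 libraries 3 of 8 were called lower on CD and 4 of 8 on HFD. In those fits 37.7% of genes on CD and 11.8% on HFD were called in either direction. The part of the endothelial cells in the Gpihbp1 values was not tested. Gpihbp1 was 12.2 to 19.2% of that sum in WT and 8.48 to 11.2% in HoipA-KO, with no overlap.

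Angptl4, an inhibitor of lipoprotein lipase, had 608, 214 and 215 CPM in WT CD and 267, 401 and 435 CPM in HoipA-KO CD. With HFD the values were 453, 1061 and 757 CPM in WT and 418, 379.7 and 526 CPM in HoipA-KO. The genotypes overlapped on both diets. Its log2 fold change was 0.09 ± 0.44 on CD (edgeR adjusted p = 0.888) and -0.78 ± 0.44 on HFD (edgeR adjusted p = 0.341). The small value on CD turned to -0.12 with 11 libraries.

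Lipa, encoding lysosomal acid lipase, went the opposite way to every other member that passed. In WT it had 59.3, 92.1 and 33.9 CPM on CD and 214, 438 and 828 CPM on HFD. In HoipA-KO it had 1368, 2056 and 1047 CPM on CD and 762, 1652 and 896 CPM on HFD. On CD every HoipA-KO library lay far above every WT library, while on HFD the highest WT library lay above the lowest HoipA-KO library. Lipa rose on CD by 4.59 ± 0.62 on the log2 scale, which is 24.1-fold (edgeR adjusted p = 0.000504), a call that held with every library left out in turn (4.31 to 5.01). On HFD its log2 fold change was 1.16 ± 0.54 (edgeR adjusted p = 0.239).

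Lipa moved with the macrophage markers over all 12 libraries. Its CPM was 11.9 to 24.2% of the summed macrophage markers in WT and 12.4 to 23.6% in HoipA-KO, a span of 2.04-fold where the CPM of Lipa spanned 60.7-fold. On CD, 8 of the 9 macrophage markers and 8 of 8 markers of lipid-associated macrophages were called higher in HoipA-KO, and in WT 8 and 7 of them were called higher on HFD than on CD. The lipid-associated list summed in WT to 169 to 356 CPM on CD and 1083 to 5048 CPM on HFD, and in HoipA-KO to 12510 to 18700 CPM on CD and 6354 to 16440 CPM on HFD. These markers and Lipa were measured in the same tissue pieces, so more macrophages and more Lipa RNA per macrophage cannot be told apart.

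**Figure D2:**
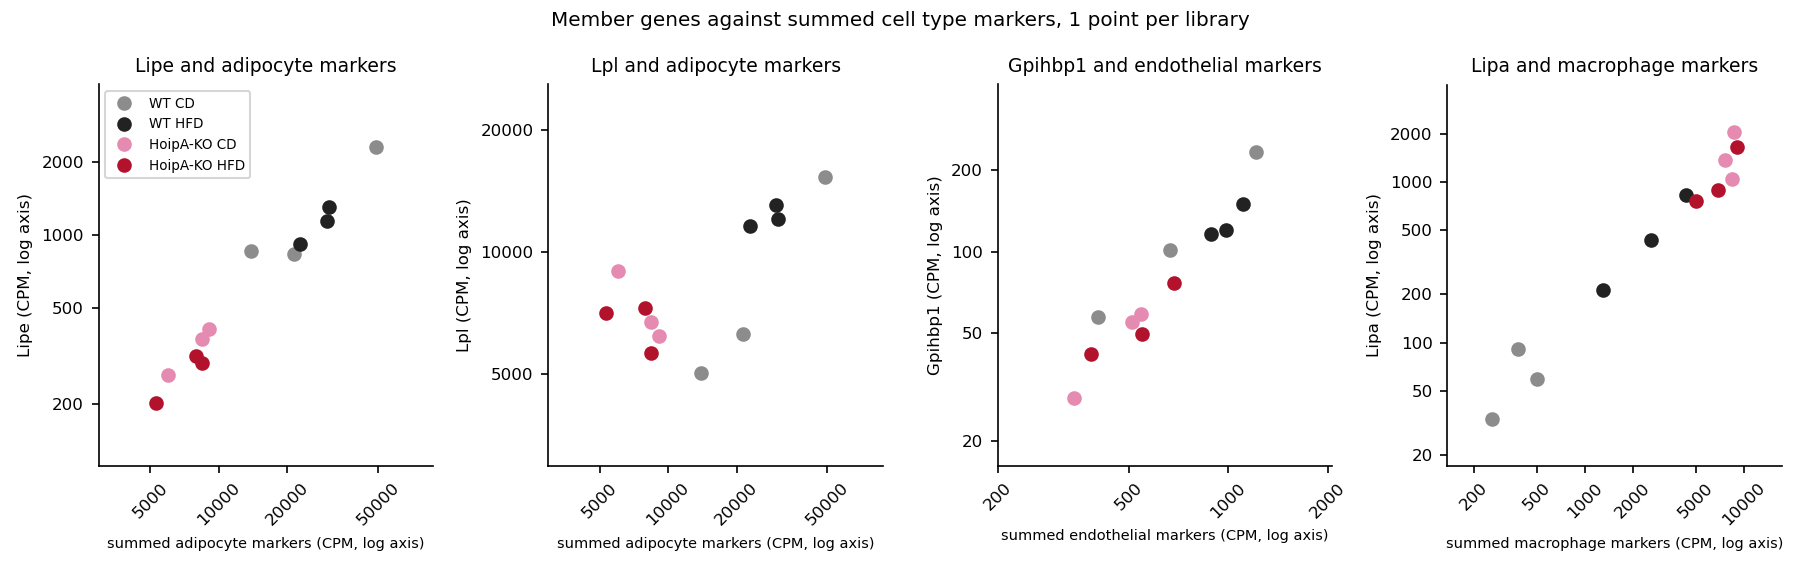
CPM of Lipe, Lpl, Gpihbp1 and Lipa (vertical log axes) against the summed CPM of marker genes of adipocytes, endothelium or macrophages (horizontal log axes), 1 point per library, coloured by group. Lipa and Lipe follow their marker sums over the whole range, while Lpl in HoipA-KO stays at 5613 to 8960 CPM where adipocyte markers are at 5314 to 9079 CPM.

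**Figure D3:**
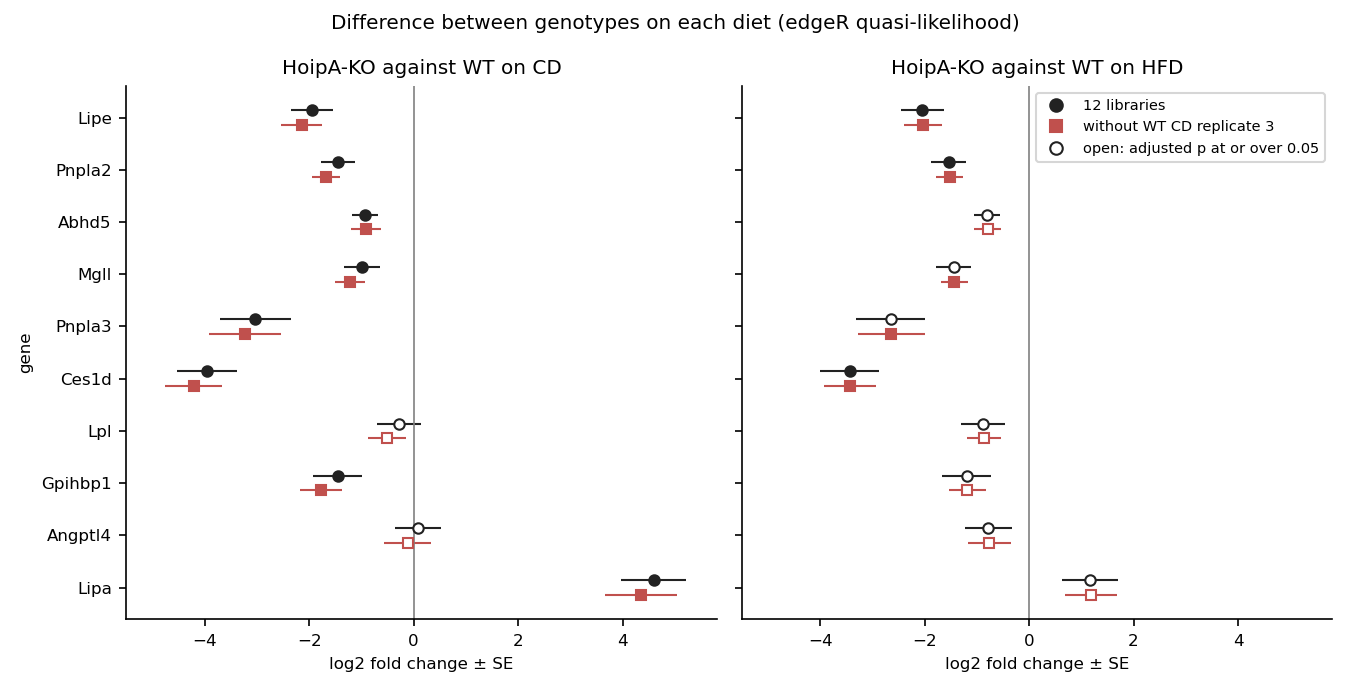
Log2 fold change of HoipA-KO against WT for each member on CD and on HFD, with bars of 1 SE from the edgeR fit, circles for 12 libraries and squares for 11. Filled symbols passed an adjusted p of 0.05: 8 on CD and 3 on HFD with 12 libraries.

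Between the diets in WT, 1 member was called higher on HFD than on CD and 0 lower, against 9.05% and 5.97% of all genes, and with 11 libraries again 1 member passed, against 14.8% of genes in either direction. That member was Lipa, which rose by 3.00 ± 0.57 on the log2 scale, which is 7.99-fold (edgeR adjusted p = 0.00908), every WT HFD library lying above every WT CD library. In a fit of these 2 groups alone it did not pass, at 2.89 (edgeR adjusted p = 0.0867). Angptl4 had a log2 fold change of 1.13 ± 0.45 (edgeR adjusted p = 0.104), and the other 8 members lay between -0.88 (Ces1d) and 0.47 (Lpl). Without WT CD replicate 1, Lpl (1.15), Mgll (0.93) and Angptl4 (1.85) were called higher on HFD as well. That fit compared against WT CD replicates 2 and 3, with epididymal and testis markers. With 1 library left out, the genes called in this comparison ran from 720 to 7046, against 2715 with 12 libraries.

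In HoipA-KO, 0 members and 0 genes were called between the diets in either direction at an edgeR adjusted p under 0.05 (0% of 18074 genes with 12 libraries and 0% with 11). At an unadjusted p under 0.05, 252 genes (1.39%) and 0 members passed, and DESeq2 called 1 gene. The members' log2 fold changes lay between -0.43 (Lipa) and 0.26 (Angptl4).

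The difference between the diets in the genotype effect, the interaction term, passed for Lipa alone among the members: -3.43 ± 0.77 on the log2 scale (edgeR adjusted p = 0.0445), lower on HFD than on CD. Of all genes, 2.70% had a lower and 0.0775% a higher interaction. With 11 libraries the Lipa term was -3.17 (edgeR adjusted p = 0.0563) and 0 members passed, against 3.91% of genes in either direction. The call was lost in 10 of the 12 fits that left out 1 library and held without WT CD replicate 1 or WT HFD replicate 1. The comparisons of genotype and of diet share their control libraries.

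Ratios of 2 members within a library do not depend on the library's depth. 8 ratios were compared between genotypes with an exact permutation test, two-sided, that reshuffled libraries within each diet over 400 arrangements, with Benjamini-Hochberg adjustment over the 8. The smallest p this design can give is 0.005. The ratio of lysosomal to intracellular lipase, Lipa to Pnpla2, was taken on the log2 scale. In WT it was -5.22, -3.54 and -4.55 on CD and -2.63, -1.62 and -0.43 on HFD. In HoipA-KO it was 1.44, 2.18 and 0.93 on CD and 0.88, 1.90 and 1.00 on HFD. Every HoipA-KO library lay above every WT library, and the mean difference was 4.39, or 20.9-fold (exact permutation p = 0.005, adjusted 0.008). As a share of macrophage markers Lipa spanned 2.04-fold over the 12 libraries, and as a share of adipocyte markers Pnpla2 spanned 1.91-fold. The part of the mix of cells in this ratio was not tested. The ratio of Lipa to Lpl, lysosomal to vascular, differed by 3.47, or 11.1-fold (exact permutation p = 0.005, adjusted 0.008).

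The ratio of vascular to intracellular lipase, Lpl to Pnpla2, was in WT 2.54 to 2.78 on the log2 scale on CD and 3.18 to 3.38 on HFD, and in HoipA-KO 3.50 to 4.30 on CD and 3.76 to 4.02 on HFD. The 2 genotypes did not overlap, and the mean difference was 0.92, or 1.89-fold (exact permutation p = 0.005, adjusted 0.008). Within the intracellular sequence, Lipe to Pnpla2 was lower in HoipA-KO by 0.50 (a log2 difference of -0.50, exact permutation p = 0.005, adjusted 0.008), with no overlap of the genotypes. Mgll to Lipe was higher by 0.77 (exact permutation p = 0.005, adjusted 0.008), also without overlap, and Abhd5 to Pnpla2 was higher by 0.60 (exact permutation p = 0.02, adjusted 0.0229). For Abhd5 to Pnpla2, WT CD replicate 3 (-2.297) lay within the HoipA-KO range of -2.662 to -2.257. The other WT libraries lay below it, at -3.351 to -2.975. Relative to the genes of both neighbouring steps, Lipe RNA was the lower in HoipA-KO tissue. Adipocyte markers were lower and macrophage markers higher in HoipA-KO, and their part in these ratios was not tested.

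Gpihbp1 to Lpl differed by -0.75 (exact permutation p = 0.02, adjusted 0.0229), and this did not pass in 4 of the 12 tests that left out 1 library, those without WT CD replicate 1, 2 or 3 or WT HFD replicate 1. Angptl4 to Lpl differed by 0.27 (exact permutation p = 0.255). Within 1 diet, 3 against 3 libraries cannot go below an exact permutation p of 0.1, so the diets are given as values: Lipa to Pnpla2 differed by 5.95 on CD and 2.82 on HFD, and Lipa to Lpl by 4.76 on CD and 2.17 on HFD. For Lpl to Pnpla2 the values were 1.19 and 0.65.

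**Figure D4:**
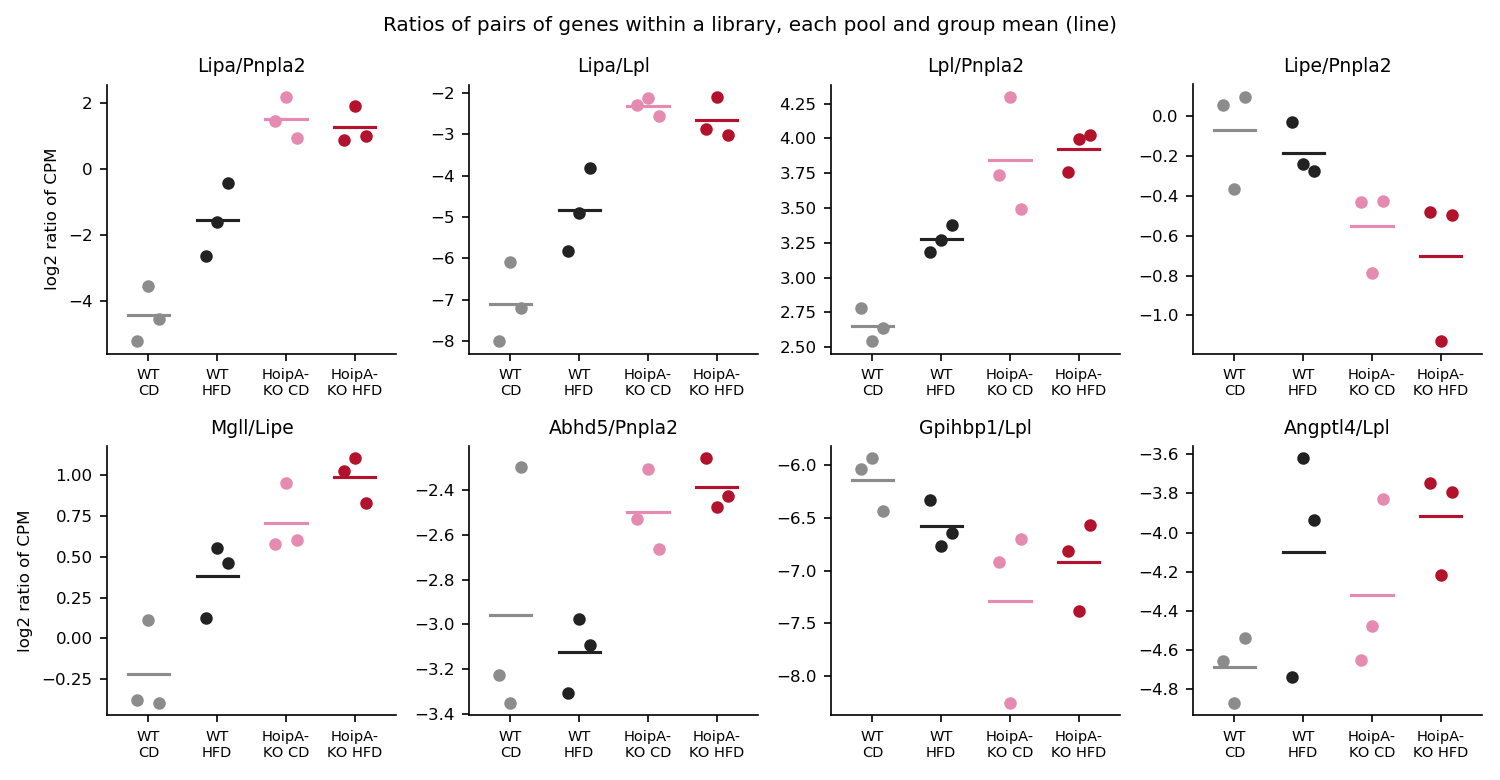
Log2 ratios of the CPM of pairs of members in each library (points, 3 pools a group in the order of their numbers) with the mean of the group as a line. For Lipa/Pnpla2 all 6 HoipA-KO libraries lie above all 6 WT libraries, from 0.88 up against -0.43 and below.

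The genes whose levels followed a member most closely over the 12 libraries were read from 10394 genes with a mean of at least 10 CPM, by Pearson's r of log2(CPM + 0.5). The 12 points share groups and tissue pieces, so r is a description. For Lipe they were Aoc3 (r = 0.992), Plin1 (0.989), Smoc1 (0.988) and Klhdc7a (0.988), with Plin1 encoding the coat protein of the adipocyte's lipid droplet. For Lpl they were Mospd1 (0.972), Focad (0.968), Oxct1 (0.967), Mtrr (0.956) and Pvr (0.953). For Gpihbp1 they were Robo4 (0.989), a receptor of endothelial cells, Hrct1 (0.985), Rab34 (0.984), Tspan7 (0.982) and Npr2 (0.982). For Lipa they were Pik3r5 (0.997), Colgalt1 (0.995), Gusb (0.994), Gla (0.994) and Igsf6 (0.993), of which Gusb and Gla encode lysosomal hydrolases. Among the members themselves, Lipe and Pnpla2 had r = 0.977 and Lipe and Ces1d 0.948, whereas Lipa had -0.767 with Lipe and -0.08 with Lpl.

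Other genes of the 3 routes were read from 4 lists, whose counts stand beside 15.6% of all genes called higher and 19.1% lower on CD, and 0.531% and 2.25% on HFD. Of 15 other intracellular lipid hydrolases, 4 were higher and 5 lower in HoipA-KO on CD (median log2 fold change -0.52), and 0 higher and 2 lower on HFD. With 11 libraries these were 5 and 6 on CD and 0 and 3 on HFD. Nceh1, a neutral cholesterol ester hydrolase of macrophages, rose by 5.16 ± 0.54 on the log2 scale (edgeR adjusted p = 0.000146), and Daglb, a diacylglycerol lipase, by 3.49 ± 0.37 (edgeR adjusted p = 0.000146). The largest falls on CD were those of Ces1e and Pnpla5. Ces1e had 10, 1271 and 8 counts in WT CD, most in the library with epididymal markers, and 0, 2 and 0 in HoipA-KO CD. In HoipA-KO HFD it had 267, 2 and 2 counts. Pnpla5 had 23, 24 and 10 counts in WT CD and 0, 0 and 1 in HoipA-KO CD, so no fold is given for either. Ces1f, a neighbour of Ces1d named after its values were seen, fell by 3.72 ± 0.49 on CD (edgeR adjusted p = 0.000439) and by 3.76 ± 0.49 on HFD (edgeR adjusted p = 0.023).

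Of 11 regulators of intracellular lipolysis, 3 were higher and 7 lower on CD (median -1.46), and 0 and 4 on HFD (median -1.62). Plin2, which coats lipid droplets in many cell types, macrophages included, rose on CD by 3.13 ± 0.47 (edgeR adjusted p = 0.000955). Hilpda, an inhibitor of ATGL, rose by 2.31 ± 0.33 (edgeR adjusted p = 0.000791). Plin4, a droplet protein of adipocytes, fell by 1.99 ± 0.52 (edgeR adjusted p = 0.0162), and Cidea fell by 4.65 ± 0.74 (edgeR adjusted p = 0.00145), the latter from 4.88 to 19.5 CPM in WT CD to 0.178 to 0.573 CPM in HoipA-KO CD. Plin1, Plin4, Cidec, Fabp4 and Aqp7 of this list also belong to the adipocyte markers. With 11 libraries 7 regulators were lower on HFD.

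Of 14 vascular partners tested (Apoa5 did not pass the filter), 3 were higher and 4 lower on CD (median -0.61), and 0 and 1 on HFD. With 11 libraries these were 2 and 4 on CD and 0 and 2 on HFD. On CD the counts of the hydrolases and of these partners went both ways and lay above the shares of all genes. Both lists are short, and this difference was not tested. Apoc2, the activator of lipoprotein lipase, rose on CD by 1.20 ± 0.37 (edgeR adjusted p = 0.0303) from 1.02 to 2.10 CPM to 2.79 to 4.67 CPM, and Lipc, hepatic lipase, had 1, 4 and 4 counts in WT CD against 21, 24 and 22 in HoipA-KO CD. Pcsk6, a protease that cuts lipases and ANGPTL proteins, fell by 2.87 ± 0.31 on CD (edgeR adjusted p = 0.000173). Lipg, endothelial lipase, fell by 4.10 ± 1.34 on CD (edgeR adjusted p = 0.0382), on 37, 6086 and 446 counts in WT CD and 112, 178 and 139 in HoipA-KO CD, so that the highest WT library was again the one with epididymal markers. The groups overlapped for Lipg.

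Of 16 lysosomal partners, 13 were higher and 0 lower in HoipA-KO on CD (median 1.79), and 0 and 0 on HFD, where the log2 fold changes of the 16 ran from -0.75 to 1.02. With 11 libraries 3 were higher and 1 lower on HFD. Ctsb rose on CD by 2.97 ± 0.46 (edgeR adjusted p = 0.00127) and Ctsd by 2.93 ± 0.45 (edgeR adjusted p = 0.00113), both cathepsins of the lysosome. In WT, 10 of the 16 were higher on HFD than on CD and 0 lower, against 9.05% and 5.97% of all genes. With 11 libraries 4 were higher, among 14.8% of genes called in either direction. The macrophage markers given for Lipa moved with this list too, and their part was not tested.

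**Figure D5:**
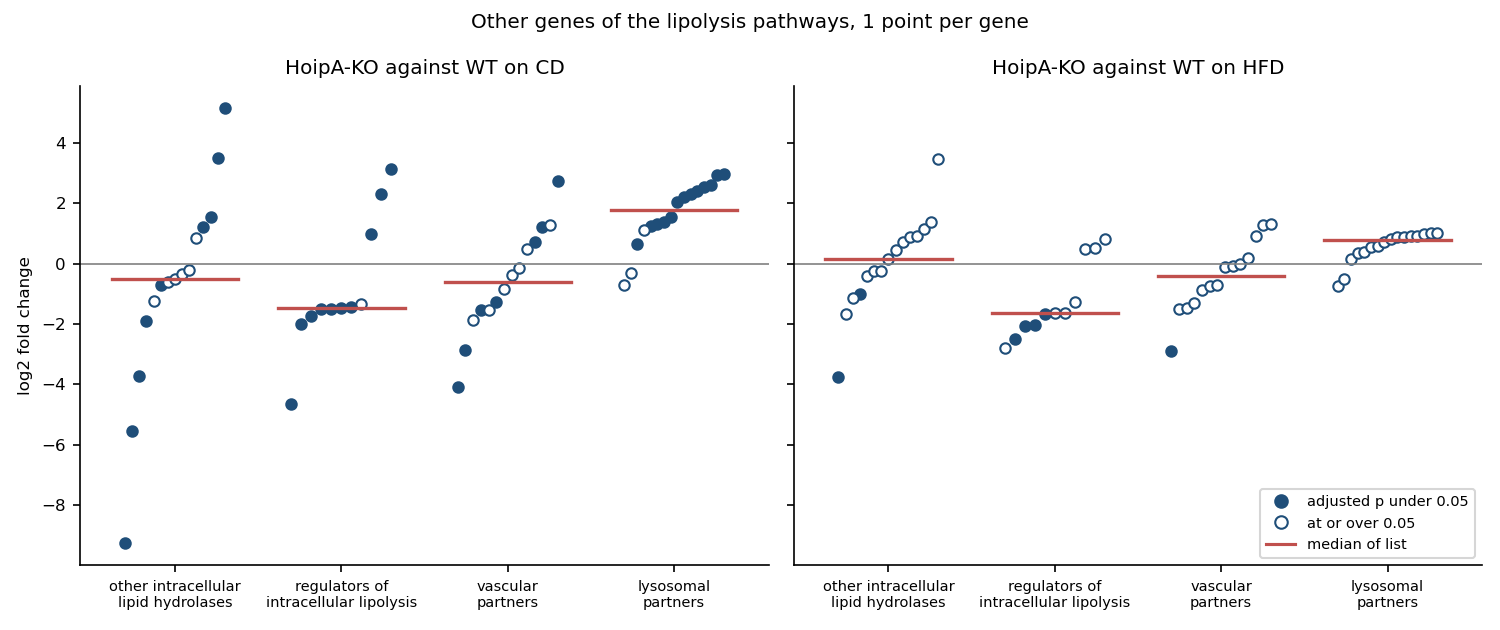
Log2 fold change of HoipA-KO against WT on CD and on HFD for the genes of the 4 pathway lists, 1 point per gene, filled where the edgeR adjusted p was under 0.05, with the median of each list as a line. The 13 filled lysosomal genes on CD are all above 0. The points of Pnpla5 and Lipc rest on few counts, and those of Ces1e on 1 library of WT CD and 1 of HoipA-KO HFD.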

How the data were processed

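RNA-seq was done on GWAT of 12 pools, 3 for each of 4 groups named by the genotype and diet labels. The deposited expected counts per gene were estimated by the authors with Salmon 1.5.2 after Trim Galore 0.6.7 and STAR 2.7.10a alignment in nf-core, per the submitters' processing notes. The labels name GRCm38 while the methods name a human assembly, and the gene IDs are those of mouse. Columns with the authors' own comparisons (fold changes and p-values) were not used. The authors' comparison tables leave out WT CD replicate 3, with no reason stated in the sources used here.

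Expected counts were rounded, filtered with filterByExpr and scaled by TMM in edgeR 4.0.16 (R 4.3.3). All 4 groups were fitted together by the quasi-likelihood method of edgeR, and p-values were adjusted after Benjamini and Hochberg over all 18074 genes, with a threshold of 0.05. The fit was tested on simulated data. Ratios used log2 of CPM + 0.5 and an exact permutation test (Python 3.11.15). The alternatives were DESeq2 1.42.0, other scalings and filters, protein-coding genes alone, a replicate block, the 2 groups alone and each library left out. The members and gene lists were chosen with earlier results of these data known. The text names all members, the 2 largest called rises and falls on CD of each pathway list, the 5 genes most like each of 4 members, and Rnf31, and 1 gene that this rule names is not reported here. Totals of 30513500 to 60540260 counts make counting error small beside the spread of pools, with a common biological coefficient of variation of 0.514 (0.394 with 11 libraries).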

Additional observations from a re-analysis of the deposited data

Results flagged for a closer look

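The interaction of genotype and diet was -3.43 on the log2 scale for Lipa, because the genotypes differed by 4.59 on CD and by 1.16 on HFD. It was singled out because the difference of the effects itself passed edgeR's test (edgeR adjusted p = 0.0445). The summed macrophage markers moved in the same way, with 5 of 9 called lower in the interaction, and their part was not tested.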

How the results depend on the processing

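In HoipA-KO against WT on CD the calls of Lipe, Pnpla3, Ces1d and Lipa, and in WT that of Lipa between the diets, held with each library left out. In a fit of the 2 groups alone 2140 genes and 2 lower members were called on CD. On HFD the genes called and the lower members were 56 and 1 with no filter, 971 and 5 with at least 10 counts in every library, 2387 and 6 with DESeq2, 782 and 5 with the replicate block, and 3038 and 8 with the 2 groups alone. For diet in WT, 1270 genes were called with no filter, 4196 with DESeq2, 1440 with the replicate block, and 0 genes and 0 higher members with the 2 groups alone. For diet in HoipA-KO DESeq2 called 1 gene. In the interaction, 247 genes and 0 lower members were called with no filter, 1799 genes with DESeq2, and 0 lower members with the replicate block (Lipa, edgeR adjusted p = 0.0558). Under the replicate block Mgll also lost its call on CD (edgeR adjusted p = 0.0729). Same-numbered libraries had r of -0.307 to 0.48 in their deviations, over 0.1 in 6 of 18 pairs, and 8 of 12 libraries correlated best with their own number, a hint of shared deviation in the data, but since not every pair passed 0.1 and no source ties the numbers to a batch or animal, the numbers were not taken to pair the libraries. The ratio differences were 5.95 on CD and 2.82 on HFD for Lipa to Pnpla2, and 4.76 and 2.17 for Lipa to Lpl. With library size in place of TMM the median of all genes moved from 0.04 to 0.14 on HFD and from 0.06 to 0.17 in the interaction, and small diet effects changed sign: Gpihbp1 in WT to 0.025 (0.063 with the replicate block), and Abhd5 and Mgll in HoipA-KO to 0.00257 and 0.0291.

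With 1 library left out, genes called ran from 2828 to 8264 on CD, 0 to 2179 on HFD, 720 to 7046 for diet in WT and 1 to 3550 in the interaction. Members called ran from 3 to 7 lower on CD, 0 to 6 lower on HFD, 1 to 4 higher for diet in WT and 0 to 3 lower in the interaction, and the Gpihbp1 to Lpl difference from -0.893 to -0.505. Values that changed sign were, on CD, Angptl4 (-0.158 to 0.812) and Lpl (-0.519 to 0.404). For diet in WT they were Abhd5 (-0.462 to 0.147), Gpihbp1 (-0.369 to 0.718), Lipe (-0.501 to 0.434), Pnpla2 (-0.373 to 0.459) and Pnpla3 (-0.35 to 0.248). For diet in HoipA-KO they were Gpihbp1 (-0.0636 to 0.41), Lpl (-0.238 to 0.0433), Mgll (-0.17 to 0.0564) and Pnpla3 (-0.174 to 0.719). In the interaction they were Abhd5 (-0.242 to 0.368), Ces1d (-0.0662 to 0.82), Gpihbp1 (-0.49 to 0.592), Lipe (-0.792 to 0.144), Pnpla2 (-0.669 to 0.154) and Pnpla3 (-0.0526 to 0.839). The cause of these changes was not tested. Pools hide the spread between mice.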
